A study of Mus musculus with 47 samples.

Results

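The comparison described here set wild-type brain against wild-type liver and lung in mouse embryos at E18.5, the day before birth. The members were all wild-type libraries of the count table, 23 of the 47 in the series: 8 brains, 8 livers and 7 lungs from 9 embryos of 8 litters. All embryos were labelled C57BL/6, and the wild-type embryos came from crosses of heterozygous Daxx knock-in mice, so that 4 brains had S226A homozygous littermates and 4 had Y130A homozygous littermates. Daxx is a chaperone of histone H3.3, and the study sequenced these tissues to compare each mutant with its wild-type littermates. The founders were made in C57BL/6N zygotes and backcrossed to C57BL/6J, and the labels give no treatment. The labels number the embryos and the replicates, and the samples of a group came from separate embryos. The labels name each tissue as a whole and do not give the borders of the dissection. The groups below are named the brains, livers and lungs of the S226A litters or of the Y130A litters, all of them wild type.

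At this age the brain holds young neurons that extend axons and assemble synapses, radial glia and other progenitors that still divide, and the first astrocytes and precursors of oligodendrocytes. Neurons arise when progenitors switch on factors such as the Neurod family and switch off repressors of neuronal genes, among them Rest and Ptbp1. Many housekeeping proteins exist in a general form and in a neural form from another gene, so that the switch can be read as pairs of genes. The liver of the late embryo is the main site of blood formation, and the lung is rich in epithelium and endothelium, so the blood, epithelial and endothelial genes also tell the brain from these organs.

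The total count was 15722147 to 24415963 reads in the S226A litters and 38069327 to 54885020 in the Y130A litters, and the totals did not overlap. The defining genes of each tissue matched the label of every library: Alb was at 115157 CPM or more in each liver and at most 79.8 CPM in each brain, Sftpc was at 4752 CPM or more in each lung and at most 1.61 CPM in each brain, and Dcx was at 542 CPM or more in each brain and at most 3.63 CPM elsewhere. CPM are read counts scaled to a common library size with TMM factors, and levels of different genes are compared as RPKM, which divides them by the exon length in kb. The liver of the S226A litters, replicate 2, held transcripts of squamous epithelium, with a list level of 4.70 against at most 0.70 in the other livers. In 3 brains few Hox reads were counted, as described with the variation among brains, and the part of either in the results was not tested except where values without them are given. The pieces are bulk tissue, in which fewer cells of a type and less RNA per cell cannot be told apart.

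Most listed genes of neurons were higher in brain than in both other organs, and the listed genes of hepatocytes, erythroid cells and simple epithelium were lower. A gene was called when its adjusted p in edgeR's quasi-likelihood test was below 0.01, its log2 fold change passed 1 in either direction and the standard error was below 1. Of 16561 genes tested, 4338 were higher in brain than in the mean of liver and lung (26.2%) and 4186 were lower (25.3%). Against liver alone 4894 genes were higher (29.6%), and against lung alone 3840 (23.2%). Called against both organs in the same direction, 3042 genes were higher in brain (18.4%) and 2753 were lower (16.6%). In 2941 of the higher genes (17.8% of those tested) the lowest brain exceeded every liver and lung, and in 2291 of the lower genes (13.8%) the highest brain lay under all of them.

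The 3042 higher genes took 32.8% to 33.7% of the reads in the brains, 2.58% to 2.82% in the livers and 5.73% to 6.06% in the lungs. Their log2 fold change against the mean of both organs ranged from 1.04 to 14.27 with a median of 4.02, or 3.99 when an organ without reads is set to 3 reads over all its libraries. A change past 5 on this scale was reached by 1201 of them and a change past 8 by 482. For 67 higher genes no read was counted in any liver or lung, and 33 of these had at least 1 CPM in every brain. The median over all genes tested was 0.02, which is the base for the list medians below.

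The higher genes also differed in shape, which the calls did not use. Their transcribed span had a median of 28.1 kb against 23.9 kb over all genes tested, and 24.4% of them spanned over 100 kb against 14.4% of all and 11.4% of the lower genes. On the X chromosome lay 5.19% of the higher genes, 3.40% of all and 2.76% of the lower genes. The median exon length was 4584.5 bases in the higher, 3895.5 in the lower and 4235.5 in all genes tested. These are descriptions without a test, and longer exons also collect more reads, so that length and the power of the call move together.

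**Figure D1:**
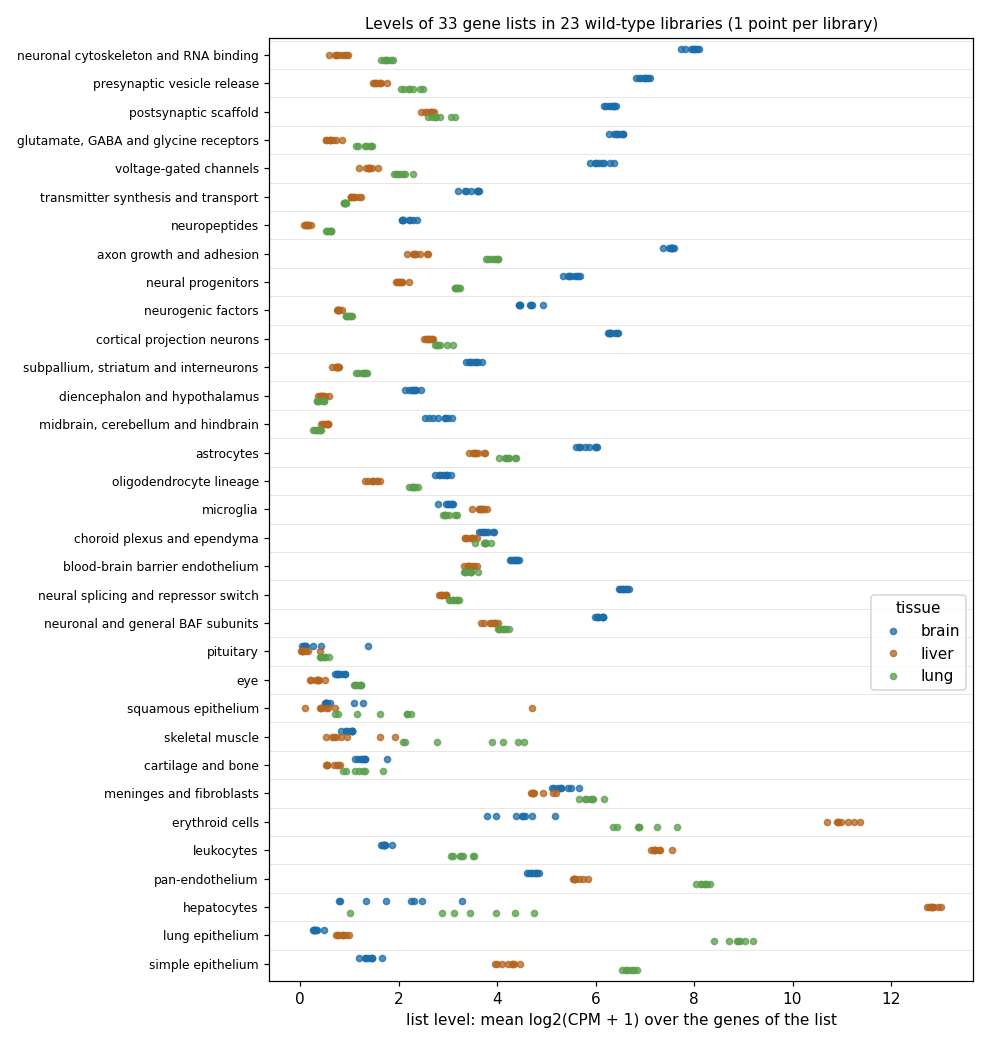
Levels of the 33 gene lists (vertical axis) as the mean of log2(CPM + 1) over the genes of a list (horizontal axis), with 1 point for each of 23 wild-type libraries of brain, liver and lung. In 19 lists the lowest brain exceeded every liver and lung library, and the presynaptic list sits between 6.82 and 7.10 in brain.

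Of 151 tested genes on 8 neuronal lists, 129 were higher in brain than in both organs (85.4%, against 18.4% of all genes), 2 were lower and 20 were neither. Their median log2 fold change was 6.63, or 6.55 with the 19 genes that had no read in liver or lung at their bound. The plot of list levels shows the 8 brains within a narrow band for every neuronal list, with a range of 0.23 to 0.49.

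All 20 genes for the neuronal cytoskeleton and neuronal RNA binding proteins were higher. Tubb3, the tubulin that marks young neurons, had 1833 CPM in the lowest brain, 2259 in the median and 2755 in the highest, against 0 to 1.18 CPM in the livers and 0.25 to 3.61 in the lungs. Its log2 fold change was 11.18 (SE 0.31, adjusted p = 1.39e-19, edgeR). Dcx, which binds microtubules in migrating neurons, was at 542, 595 and 615 CPM in brain, at 0.12 to 2.62 in liver and at 0.51 to 3.63 in lung, a log2 fold change of 8.48 (SE 0.22, adjusted p = 3.88e-20, edgeR). Per length the highest of the list were Tubb3 with a median of 1209 RPKM, Stmn3 with 471 RPKM and Gap43, a protein of growth cones, with 413 RPKM. The smallest difference was that of Nova2, a neuronal splicing factor, with a log2 fold change of 2.30 (SE 0.20). Nova2 overlapped with lung, where the highest library had 31.4 CPM and the lowest brain 16.7 CPM.

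All 21 genes of presynaptic vesicle release were higher as well, with a median log2 fold change of 6.51. The vesicle protein Syt4 led them with 321 to 367 CPM in the brains and no more than 1.48 CPM in any other library. Snap25, a SNARE of the synaptic terminal, had 97.1, 115 and 125 CPM in brain, 0 to 0.26 in liver and 0.20 to 0.85 in lung, and its log2 fold change was 10.38 (SE 0.18). Vamp2, the SNARE of the vesicle, showed the smallest difference, 1.19 (SE 0.16), and the highest lung with 43.5 CPM overlapped with the brains, which had 34.5 to 48.7 CPM. With only the S226A litters its log2 fold change was 0.73 and it lost the call (edgeR adjusted p = 0.0184). The other 20 genes had no overlap.

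For the list of the postsynaptic scaffold the median difference was smaller than for vesicle release. Of 17 scaffold genes, 14 were higher, with a median log2 fold change of 3.84. Cntnap2, an adhesion protein of the axon membrane, had the largest, 10.39 (SE 0.22). Camk2b, a subunit of the kinase of the postsynaptic density, was at 272 to 344 CPM in brain and at most 16.7 CPM elsewhere. Shank2, Shank3 and Gphn did not pass against both organs. Gphn, the scaffold of inhibitory synapses, still had 98.7 to 115 CPM in brain against 36.2 to 47.3 in liver and 53.7 to 65.0 in lung, without overlap. Shank3 had 39.7 to 55.4 CPM in brain and 40.0 to 163 CPM in lung, and its log2 fold change was 0.18 (SE 0.13).

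Among receptors for glutamate, GABA and glycine, 19 of 20 were higher, with a median of 8.12. Gria2, the AMPA receptor subunit, had 555, 673 and 711 CPM in brain and at most 0.81 CPM in any liver or lung. Gabra5, a GABA-A receptor subunit, had 54.8 to 69.9 CPM in brain and not 1 read in liver or lung, so that brain was at least 4056-fold higher than liver and at least 4864-fold higher than lung, with the floor at 3 reads over a group. Gria3 was the exception: lung with 39.5 to 64.1 CPM overlapped with brain at 36.9 to 61.8 CPM, while liver had 11.6 to 18.8 CPM. These bounds cover counting error only.

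Voltage-gated channels were higher for 15 of 17 genes, with a median of 6.06. Scn2a, a sodium channel of the axon, had 263, 294 and 336 CPM in brain against at most 1.77 in liver and 3.41 in lung, a log2 fold change of 8.10 (SE 0.15). Scn1a, Scn3a and Kcnd2 had log2 fold changes of 10.70, 5.67 and 8.54. Kcna2, a potassium channel of myelinated axons, was higher in lung, at 40.2 to 90.6 CPM, than in liver with 8.81 to 18.6 CPM, and the brains had 26.1 to 40.9 CPM, overlapping with lung. Kcna1 was the other channel that did not pass.

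The list of transmitter synthesis and transport had 13 of 18 genes higher, 1 lower and 4 neither, with a median of 6.47 (5.76 with the genes without reads at their bound). Slc17a6, which loads glutamate into vesicles, had 152 to 203 CPM in brain, 1 read in all livers together and 7 in all lungs. Gad1 and Gad2, which make GABA, had 119 to 146 CPM and 65.2 to 80.0 CPM in brain and at most 1.25 CPM in any other library. Slc17a8, another vesicular glutamate transporter, was higher than in lung but lower than in liver, with 3.48 to 6.56 CPM in brain, 3.26 to 26.5 in liver and 0 to 0.45 in lung (log2 fold change of -1.02 against liver, edgeR adjusted p = 0.00264). Ddc, Slc6a4 and Slc6a5 did not pass against both organs, the last for its standard error alone. Hdc, which makes histamine, was lower in brain, with 1.47 to 3.22 CPM against 14.2 to 20.6 in liver and a median of 48.5 in lung, a log2 fold change of -3.97 (SE 0.13).

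Neuropeptides were low but clear. Of 16 tested genes, 10 were higher, with a median of 6.43 (5.83 with genes without reads at their bound). Sst, made by a class of interneurons, had 39.7, 60.3 and 80.9 CPM in brain, and Npy had 33.7, 37.5 and 39.4 CPM. Both were at most 0.15 CPM in any liver or lung. Penk had 12.2 to 28.3 CPM in brain and 13.5 to 21.1 CPM in lung, and was not called against lung (adjusted p = 0.662, edgeR). Gnrh1 was lower in brain, at 0.52 to 1.29 CPM, than in liver with 1.21 to 4.09 and lung with 1.02 to 2.64 CPM, and its range in brain overlapped with both.

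Axon growth and adhesion genes were higher for 17 of 22, with a median of 5.84. Dpysl3, a protein of the growth cone, was the highest per length with 320 RPKM, and its CPM were 2014, 2114 and 2256 in brain, 11.8 to 20.8 in liver and 61.0 to 68.9 in lung. Crmp1 and Ncam1 followed, with log2 fold changes of 9.20 and 4.92. Nrp1, a receptor for semaphorins and for VEGF, had 167 to 192 CPM in brain but 337 to 450 CPM in lung. Epha3, Efna5, Sema3a and Sema3c did not pass either.

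**Figure D2:**
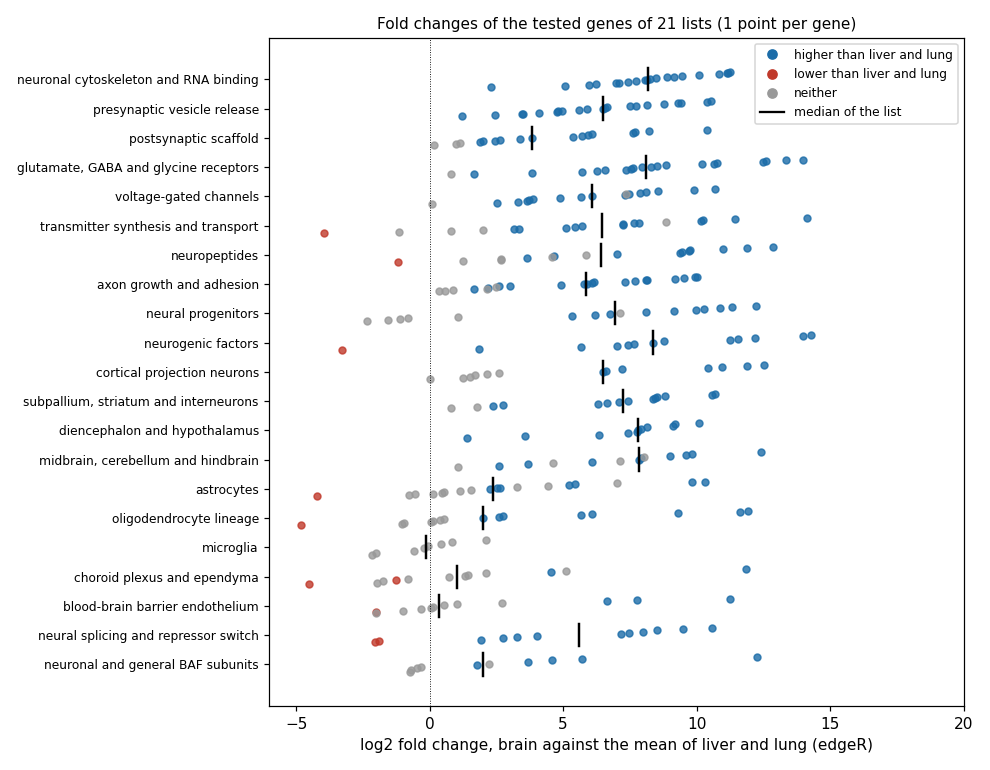
Log2 fold change of brain against the mean of liver and lung (horizontal axis) for each tested gene of 21 lists (vertical axis), with 1 point per gene coloured by its call and the list median as a black bar. The cytoskeletal and presynaptic lists hold only genes called higher, and the microglial list holds none.

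Progenitors were still visible beside the neurons. Of 16 genes of neural progenitors, 10 were higher, with a median of 6.95 (6.48 with genes without reads at their bound), and 6 were neither. Pax6, a factor of cortical radial glia, had 29.8, 37.5 and 45.5 CPM in brain, no read in liver and at most 0.16 CPM in lung. Sox2, a factor that keeps progenitors undifferentiated, had 26.6, 32.7 and 46.9 CPM in brain, no read in 7 livers and 2.74 to 4.72 in lung, a log2 fold change of 6.76 (SE 0.25, adjusted p = 1.08e-15, edgeR). The liver with Sox2 reads, at 0.79 CPM, was that of the S226A litters, replicate 2, which also held squamous transcripts, and without this library the log2 fold change was 8.19. Fabp7, the fatty acid binding protein of radial glia, was the highest of the list per length with a median of 416 RPKM.

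Most progenitor genes that were not called were as high or higher in lung. Nes, an intermediate filament of progenitors, had 113 to 179 CPM in brain and 116 to 182 CPM in lung. Vim, a filament also of mesenchyme, had 217 to 310 CPM in brain and 1010 to 1182 CPM in lung. Hopx had 9.24 to 17.9 CPM in brain and 198 to 374 CPM in lung, where it marks an epithelial lineage. Hes1 and Notch1 were lower in every brain than in any other library but did not reach the limits against both organs. Sox3 had 1.38 to 3.30 CPM in brain and at most 0.51 CPM elsewhere, and missed the call only by its standard error against liver, 1.01.

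Of 13 tested neurogenic factors, 12 were higher, with a median of 8.36. Neurod2, a factor of young cortical neurons, had the largest log2 fold change of all genes called against both organs, 14.27 (SE 0.19). It had 60.2, 73.9 and 112 CPM in the brains and not 1 read in any liver or lung, a difference of at least 5186-fold against liver and at least 6220-fold against lung. Neurod6 had 152, 192 and 251 CPM in brain and at most 0.24 CPM elsewhere. Myt1l, a repressor of non-neuronal genes, had 296 to 371 CPM in brain and at most 0.43 CPM elsewhere. Btg2, which slows the cell cycle in progenitors and in many other cells, was lower in brain with 15.6 to 20.9 CPM against 126 to 178 in liver and 150 to 248 in lung, a log2 fold change of -3.28 (SE 0.11).

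Genes of the forebrain, midbrain and hindbrain were all measured in the same pieces. Of 51 tested genes on 4 regional lists, 39 were higher (76.5%), 12 were neither and 0 were lower. Over all tested genes 18.4% were higher and 16.6% lower than both organs. In the cortical list 7 of 13 were higher, led by Fezf2 of deep layer neurons, with 17.5 to 28.0 CPM in brain and no read elsewhere. Cux1 of the same list had 187 to 215 CPM in brain and 300.7 to 530 CPM in lung. Reln, made by the earliest cortical neurons, had a lowest value of 327 CPM in brain, and every brain lay under the livers with 664 to 886 CPM. Subpallial genes were higher for 12 of 14, for example Dlx1, a factor of interneuron precursors, with 47.4 to 67.7 CPM in brain and at most 0.79 elsewhere. Nkx2-1, which is also a factor of lung epithelium, and Ebf1 did not pass.

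All 11 tested genes of the diencephalon and hypothalamus were higher, with a median of 7.82 (6.73 with genes without reads at their bound). Lhx9 had 51.6 to 76.1 CPM in brain and at most 1.04 elsewhere. Of 13 genes of the midbrain, cerebellum and hindbrain 9 were higher, and Pax2, Pax5 and Atoh1 were among the 4 that were neither. Zic1, a factor of dorsal brain and cerebellum, had 110 to 175 CPM in brain and at most 1.17 CPM elsewhere. Pax5, which is also a factor of B cells, had 4.72 to 7.41 CPM in brain and 13.8 to 28.8 CPM in liver.

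Of 53 tested genes on 4 glial lists, 17 were higher (32.1%), 4 were lower and 32 were neither, beside 18.4% higher and 16.6% lower over all tested genes, with a median log2 fold change of 1.13. Read against the same shares, the astrocyte list held 7 higher and 1 lower of 18, with a median of 2.39. Ncan, a proteoglycan of the neural matrix, had 377 to 460 CPM in brain and at most 1.85 elsewhere, and Aldoc, the aldolase of astrocytes, had 113 to 188 CPM against at most 85.0 in liver and 22.1 in lung. Gfap, the filament of mature astrocytes, had 7.64, 14.6 and 21.4 CPM in brain and 8.33, 14.6 and 21.7 CPM in liver, and was not called against liver (adjusted p = 0.824, edgeR). In lung it was at most 0.32 CPM. Agt, the precursor of angiotensin, was lower in brain, with a log2 fold change of -4.21 (SE 0.13), and had 531 to 687 CPM in liver and 37.0 to 59.1 in lung.

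The oligodendrocyte lineage was seen at an early stage. Of 15 tested genes, 8 were higher and 1 was lower, with a median of 2.00. Olig1, a factor that specifies the lineage, had 22.4, 28.6 and 36.4 CPM in brain, no read in liver and at most 0.19 CPM in lung. Mbp, the gene of myelin basic protein, did not separate the organs, with medians of 36.5 CPM in brain, 40.0 in liver and 32.8 in lung and ranges that overlap (log2 fold change 0.03, SE 0.07, adjusted p = 0.663, edgeR). The counts are per gene and do not tell its transcripts apart. Mog, Mobp and Opalin of mature myelin were too low to be tested. Myrf, a factor of myelin genes, was lower in brain, with 0.59 to 1.69 CPM against 14.7 CPM or more in every other library.

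None of the 8 microglial genes was called higher or lower than both organs, and the list level was 2.80 to 3.10 in brain, 3.48 to 3.79 in liver and 2.91 to 3.19 in lung. Csf1r, the receptor that microglia share with other macrophages, had 23.7 to 28.1 CPM in brain, 212 to 241 in liver and 39.8 to 55.8 in lung. Tmem119, which marks mature microglia, had 2.35 to 4.01 CPM in brain and 31.4 to 37.0 CPM in lung. Choroid plexus and ependyma had 2 higher, 2 lower and 8 other genes among 12, beside 18.4% higher and 16.6% lower over all tested genes. Ttr, the transthyretin of choroid plexus and of liver, had 536, 592 and 800 CPM in brain, 4189 to 5938 in liver and 0.55 to 8.65 in lung, so that brain lay between both (log2 fold changes of -2.93 against liver and 7.17 against lung). Otx2 had a median of 18.1 CPM in brain, no read in liver and 1 read in all lungs.

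In the list for the blood-brain barrier 3 of 12 genes were higher, 1 was lower and 8 were neither, beside 18.4% higher and 16.6% lower over all tested genes, with a median of 0.33, although the list level of every brain, 4.26 to 4.45, exceeded every liver and lung. Cldn5, a tight junction protein of endothelium, had 43.2 to 66.0 CPM in brain, 6.97 to 13.2 in liver and 121 to 156 in lung. The pan-endothelial list had 3 of 6 genes lower and 0 higher. Cdh5, the cadherin of endothelium, had 26.8 to 34.3 CPM in brain, 92.8 to 121 in liver and 372 to 737 in lung.

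The list of regulators of neuronal splicing and of neuronal genes had members in both directions. Of 12 genes, 10 were higher in brain and 2 were lower, and no gene was neither. Rest and Ptbp1 were the lower ones. Rest (ENSMUSG00000029249.15, GRCm38 chromosome 5, 77265491 to 77286432), which represses neuronal genes outside neurons, had 21.1, 23.4 and 25.1 CPM in brain, 69.1, 80.8 and 87.8 in liver and 111, 114 and 134 in lung. The organs did not overlap, and the log2 fold changes were -1.78 against liver (SE 0.06, adjusted p = 3.47e-18, edgeR) and -2.32 against lung (SE 0.06, adjusted p = 1.06e-19). Ptbp1, which blocks neuronal exons, had 52.0 to 67.5 CPM in brain, 232 to 274 in liver and 175 to 241 in lung. Its paralog Ptbp2, which takes over in young neurons, had 266 to 362 CPM in brain, 29.5 to 44.2 in liver and 57.5 to 66.4 in lung. Among the other splicing regulators of the list, Celf3 had a log2 fold change of 10.58, Rbfox1 of 7.15 and Khdrbs3 of 4.03.

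Rest binds a site known as RE1, whose left and right parts hold the letters TTCAGCACC and GGACAGCG. Exact matches to either part, on both strands, were counted in RefSeq promoters (GRCm38.p6, 250 bases before to 50 after each start), which covered 2264 of the 3042 higher genes with 3042 promoters. The left part was found in 32 promoters of higher genes (1.05%), in 4 of 2625 promoters of lower genes (0.152%), in 72 of 16184 promoters of all tested genes (0.445%) and in 122 of all 32851 promoters (0.371%). The right part was found in 2.24%, 1.56%, 1.96% and 1.26% of the same sets. Both parts stood in 5 promoters of higher genes, of Osbp2, Psd, Ptprn2, Tph2 and Unc13a, in 0 of lower genes and in 7 of all promoters. The short motifs CAGCTG, bound by proneural factors, and ACAAAG, bound by SOX factors, were in 566 and 457 of the 3042 promoters of higher genes, 474 and 425 of the 2625 of lower genes, 16.2% and 14.7% of those of all tested genes, and 16.3% and 18.7% of all promoters. None of the 4 motifs contains another. A match is a run of letters and not a measured site, and most known sites differ from these exact letters.

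The 4 promoters that hold the left part, of 155 promoters of 110 genes on the neuronal lists, are shown because they are the members in which these letters and the measured rise in brain can be seen together, with the left and right parts in capitals. Nlgn1 is at chr3:26153937-26154236, Unc13a at chr8:71671708-71672007, Tph2 at chr10:115184973-115185272 and Syn1 at chrX:20920869-20921168, each on the minus strand and written 5′ to 3′ along the gene.
Nlgn1: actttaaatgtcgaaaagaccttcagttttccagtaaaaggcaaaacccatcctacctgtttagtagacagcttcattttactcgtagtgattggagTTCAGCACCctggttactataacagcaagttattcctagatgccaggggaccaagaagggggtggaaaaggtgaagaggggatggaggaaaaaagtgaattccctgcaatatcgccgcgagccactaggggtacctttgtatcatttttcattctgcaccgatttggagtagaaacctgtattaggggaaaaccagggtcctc
Unc13a: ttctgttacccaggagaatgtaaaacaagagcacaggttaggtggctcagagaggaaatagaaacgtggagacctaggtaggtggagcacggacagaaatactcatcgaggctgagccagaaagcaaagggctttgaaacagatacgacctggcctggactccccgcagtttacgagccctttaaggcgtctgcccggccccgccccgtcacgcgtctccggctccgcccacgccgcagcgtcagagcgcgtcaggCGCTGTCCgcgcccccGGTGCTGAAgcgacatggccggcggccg
Tph2: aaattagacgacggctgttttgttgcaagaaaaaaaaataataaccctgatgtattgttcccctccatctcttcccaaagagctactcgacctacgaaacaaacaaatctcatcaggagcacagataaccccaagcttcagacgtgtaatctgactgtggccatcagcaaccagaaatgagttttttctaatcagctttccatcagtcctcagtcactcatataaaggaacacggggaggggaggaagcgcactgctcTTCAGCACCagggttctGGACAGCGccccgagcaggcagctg
Syn1: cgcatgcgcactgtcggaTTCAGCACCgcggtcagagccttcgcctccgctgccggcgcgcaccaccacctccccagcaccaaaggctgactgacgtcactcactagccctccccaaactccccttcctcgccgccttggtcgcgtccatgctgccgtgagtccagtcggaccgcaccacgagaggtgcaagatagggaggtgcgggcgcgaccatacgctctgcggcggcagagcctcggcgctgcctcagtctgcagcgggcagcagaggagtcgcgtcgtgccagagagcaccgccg
In Tph2 and in Unc13a both parts are separated by 8 bases, and in Unc13a they lie on the strand opposite to the gene. Unc13a, which primes synaptic vesicles, had 173, 209 and 239 CPM in brain, at most 3.35 in liver and at most 1.25 in lung. Nlgn1, a postsynaptic adhesion protein, had 149 to 173 CPM in brain, and lung with 5.46 to 9.81 CPM exceeded liver with at most 0.43. Syn1, a coat protein of synaptic vesicles, had 15.1 to 24.6 CPM in brain and at most 0.63 elsewhere. Tph2, which starts serotonin synthesis in neurons, had 3.76 to 8.35 CPM in brain and at most 0.72 elsewhere.

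Daxx acts on chromatin, as does the BAF complex, whose neuronal form swaps subunits when progenitors become neurons. Of 10 neuronal and general BAF genes 5 were higher and 0 lower, beside 18.4% higher and 16.6% lower over all tested genes. The neuronal subunit Actl6b had 77.8, 88.8 and 96.6 CPM in brain, 2 reads in all livers and 9 in all lungs, while the general form Actl6a had 30.1 to 37.3 CPM in brain, 43.7 to 71.4 in liver and 40.2 to 53.3 in lung. Dpf1 and Ss18l1, also neuronal, had log2 fold changes of 5.69 and 3.67, and the general Ss18 had -0.72. Dpf3 was called neither higher nor lower than both organs, as were Actl6a, Dpf2, Ss18 and Phf10. Daxx itself (GRCm38 chromosome 17, 33909414 to 33915590) had 35.0, 40.1 and 45.8 CPM in brain, 34.4 to 50.8 in liver and 27.1 to 34.0 in lung. Its log2 fold changes were -0.01 against liver (adjusted p = 0.928, edgeR) and 0.37 against lung (SE 0.08, adjusted p = 0.000147). Atrx, the partner of Daxx, had 451, 535 and 557 CPM in brain, 258 to 284 in liver and 364 to 464 in lung, and neither gene passed the limit of 1.

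**Figure D3:**
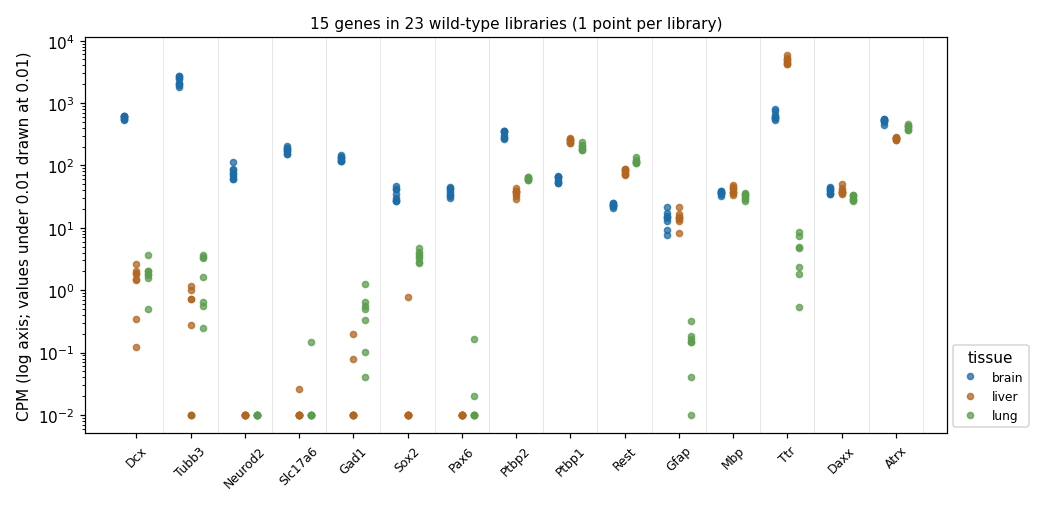
CPM on a log axis (vertical) of 15 genes (horizontal axis) in the 23 wild-type libraries, with 1 point per library and values under 0.01 drawn at 0.01. Rest and Ptbp1 lie lower in all 8 brains than in any liver or lung, Ptbp2 lies higher, Mbp overlaps with both organs, and Daxx overlaps with liver.

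Pairs of related genes showed the neural form and the general form of 1 protein on the same scale. In all 20 pairs the difference of log2(RPKM + 0.1) between the neural and the other form was larger in every brain than in every liver and lung. In 16 pairs the neural form was ahead in all 8 brains, and in 16 pairs it was ahead in no liver or lung. Of the neural forms 19 were higher than both organs, and of the other forms 8 were lower, 1 was higher and 11 were neither.

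For Tubb3 and Tubb6 the difference was 8.25 to 8.94 in brain, -6.39 to -3.83 in liver and -5.51 to -3.21 in lung. For Snap25 and Snap23, the SNAREs of synapses and of general secretion, it was 1.89 to 2.38 in brain and -5.97 at most elsewhere. For Kif5c and Kif5b, the neuronal and the general heavy chain of kinesin, it was 2.11 to 2.25 in brain, and Kif5b itself had a log2 fold change of 0.23. For Slc12a5 and Slc12a2, which export and import chloride, it was 1.47 to 1.84 in brain, -1.55 to -0.69 in liver and -4.79 to -3.18 in lung.

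In other pairs the general form stayed ahead. In Eno2 and Eno1, the neuronal and the general enolase, the neural form stayed behind in all brains, by 1.36 to 1.75, although Eno2 rose by 5.96 on the log2 scale and Eno1 had a log2 fold change of -0.01. The same held for Stmn2 and Stmn1 and for Gnao1 and Gnai2, with medians of -1.96 and -0.95 in brain. Stmn1 was the 1 general form that was higher in brain, by 3.96 on the log2 scale, and Slc2a3, a glucose carrier of neurons, was the neural form that did not pass, with 70.1 to 88.5 CPM in brain and 55.3 to 67.3 CPM in liver.

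**Figure D4:**
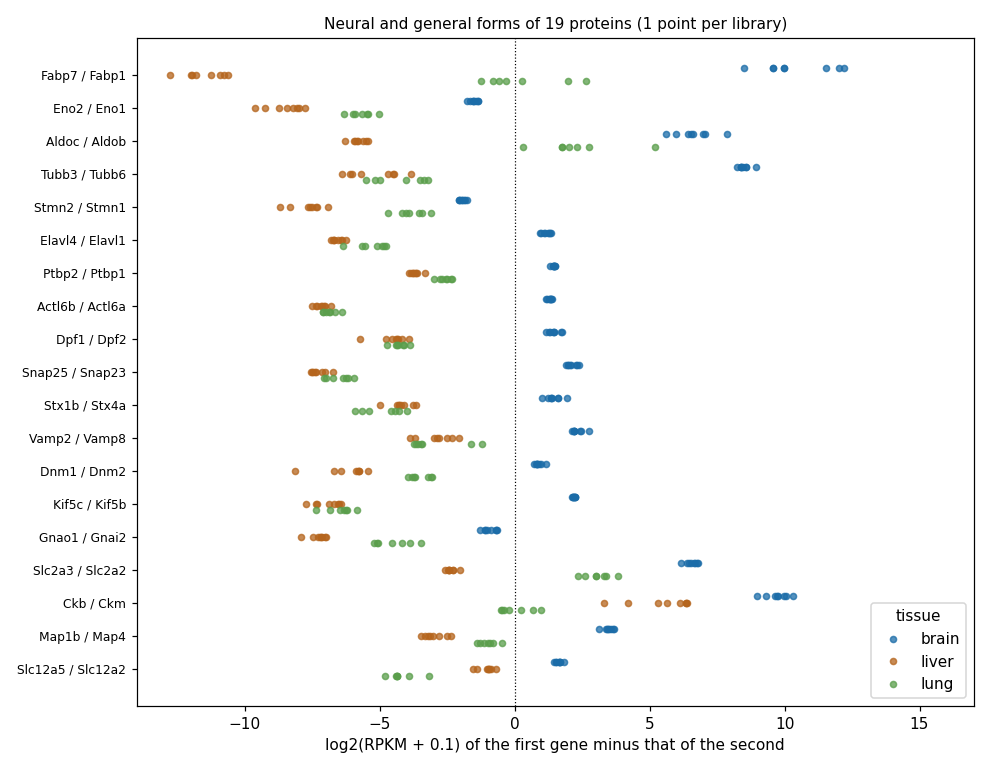
Difference of log2(RPKM + 0.1) between the first and the second gene of 19 of the 20 pairs (horizontal axis, pairs on the vertical axis), with 1 point for each wild-type library. Brain points lie to the right of all liver and lung points in each pair, and those of Eno2, Stmn2 and Gnao1 remain under 0.

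Gene families, taken by their symbols, were counted beside the 18.4% of all tested genes that were higher than both organs. All 7 tested metabotropic glutamate receptors were higher, with a median log2 fold change of 10.80. Ionotropic glutamate receptor subunits were higher for 16 of 19, serotonin receptors for 11 of 13, synaptotagmins for 13 of 16, GABA-A receptor subunits for 13 of 17, voltage-gated calcium channel subunits for 17 of 24 and potassium channels for 52 of 84. LIM homeobox factors were higher for 7 of 8, POU factors for 9 of 12 and SOX factors for 9 of 18. Nicotinic receptor subunits were higher for 6 of 13, semaphorins and plexins for 5 of 29 and Hox genes for 1 of 20. Of the clustered protocadherins, which give neurons their surface identity, 37 of 54 were higher and 0 lower, but these genes share exons and near-identical sequence, so that single members are uncertain.

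Other families had members in both directions, beside 18.4% of all tested genes higher and 16.6% lower than both organs. Eph receptors and ephrins had 12 higher and 4 lower of 22, tubulins had 6 higher and 4 lower of 13, and kinesins had 11 higher and 9 lower of 36. The higher kinesins include Kif1a, Kif5a and Kif5c, and the lower ones include Kif20a, Kif23, Kif14, Kif16b and Kif1c. These kinesins were named after their values were seen. Cytochromes P450 had 4 higher and 16 lower of 72, and keratins had 3 higher and 6 lower of 25.

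Per length, tubulins were among the most abundant brain transcripts. The 10 highest genes by median RPKM were mt-Co1 (2813), Eef1a1 (2277), Tuba1a (1993), Actb (1606), Tubb3 (1209), Tubb2b (1138), Gm10800 (989), Tubb5 (980), Nnat (838) and Rplp1 (782). Tuba1a, Tubb3, Tubb2b, Tubb5 and Nnat were higher than in both organs, with log2 fold changes of 6.32, 11.18, 8.40, 2.29 and 6.19. The other 5 genes, of translation, the cytoskeleton, mitochondria and a predicted gene, were neither. The median of Gm10800 describes neither set of litters, since its brains had 49.9 to 118 CPM in the S226A litters and 1188 to 6265 CPM in the Y130A litters.

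By fold change, Neurod2 was followed by Slc17a6, Gabra5, Neurod6, B3gat1, Grm5, Glra2, Sst, Gabrg1 and Prmt8, with fitted log2 fold changes of 14.15 down to 12.64. The fitted values of genes with few reads in liver and lung depend on the constant that edgeR adds, and their order is not firm. B3gat1, which makes the HNK-1 sugar of neural cells, had 120 to 138 CPM in brain, no read in liver and 17 reads in all lungs. Grm5, a glutamate receptor, had 234 to 294 CPM in brain, no read in liver and 35 reads in all lungs. Prmt8, an arginine methyltransferase of neurons, had 27.6 to 35.6 CPM, no read in liver and 1 read in all lungs.

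The 5 most negative log2 fold changes were those of Cyp2f2 (-11.02), Ear2 (-10.78), Hp (-10.75), Marco (-10.70) and Prr15l (-10.66), and none exceeded 0.64 CPM in a brain. Marco, a scavenger receptor of macrophages, had 87.5 to 137 CPM in liver and 1.91 to 4.11 in lung. All 8 hepatocyte genes, all 8 erythroid genes and all 8 genes of simple epithelium were lower, and 6 of 8 leukocyte genes. Hbb-bs, the adult beta globin, had 209, 329 and 662 CPM in brain, 8618 to 16454 in liver and 1473 to 3435 in lung. Cdh1, the cadherin of epithelium, had 4.82 to 8.86 CPM in brain, 161 to 217 in liver and 294 to 438 in lung. In the list for meninges and fibroblasts 3 genes were higher and 4 lower of 12, beside 18.4% higher and 16.6% lower over all tested genes: Ptgds, Foxc1 and Crabp2 rose by 8.15, 3.54 and 5.59 on the log2 scale, and Col3a1 had 190 to 269 CPM in brain against 2229 CPM or more in lung.

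The 8 brains were close to each other. Over 13723 genes with a median of at least 1 CPM in brain, the SD of log2(CPM + 1) had a median of 0.13, it was under 0.25 for 12476 genes (90.9%) and over 1 for 26 (0.189%). The 10 most variable genes were the Y-linked Kdm5d, Ddx3y, Eif2s3y and Uty, the predicted genes Gm21738, Gm10800, Gm10801, Gm10718 and Gm11168, and Dnm3. The Y-linked genes split the brains into 4 with at least 37.1 CPM of each and 4 with at most 0.54 CPM.

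Hox genes, which pattern the hindbrain and spinal cord, differed by over 10-fold among the brains, and they were picked after their values were seen. The 33 Hox genes together had 0.46, 2.15, 40.6 and 43.0 CPM in the brains of the S226A litters, replicates 1 to 4, and 26.4, 43.0, 65.0 and 1.65 CPM in those of the Y130A litters. The lowest value rests on 11 reads. The same 3 brains were low for Slc6a5, the glycine transporter of brainstem and cord, with 0.38, 2.44 and 0.97 CPM against 6.72 to 14.4 CPM in the other 5. With only the 5 brains of many Hox reads in the fit, 4288 genes were higher and 4001 lower than the mean of both organs, and the borders of each dissection are not given.

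Single brains differed in other ways. Gh, the growth hormone of the pituitary, had 110 CPM in the brain of the Y130A litters, replicate 4, and at most 4.30 CPM in the others, and Pomc had 20.8 CPM there and at most 2.17 CPM in the others. The level of the pituitary list was 1.37 in this brain and at most 0.43 in the rest. Alb ranged from 3.32 to 79.8 CPM over the brains.

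Dnm3, a dynamin of synapses, was low in 2 of the 8 brains, and in the other tissues of the same embryos. Its locus spans chromosome 1, 161982453 to 162478034 (GRCm38). In the brains of the S226A litters it had 144, 124, 143 and 156 CPM, and in those of the Y130A litters 132, 71.8, 1.17 and 2.09 CPM. The paralogs did not follow, with 130 to 160 CPM of Dnm1 and 72.6 to 81.9 CPM of Dnm2 over the 8 brains. Counted as CPM of all reads without TMM scaling in all 47 libraries, mutants included, the 8 brains of the S226A litters had 148 to 182 and the 8 of the Y130A litters 1.31 to 161. In liver the ranges were 3.87 to 8.59 and 0 to 4.12, and in lung 9.88 to 15.3 and 2.63 to 9.11, so that the sets of litters did not overlap in lung. The embryos with 1.17 and 2.09 CPM in brain had 0.10 and 0 in liver on this scale, the lowest of all livers, and the lung of the first of them, with 2.63, was the lowest of all lungs. Of the expressed neighbours, the nearest on either side did not fall in these 2 brains: Pigc had at least 16.8 CPM, Mettl13 had 18.6 to 21.8 CPM and Vamp4 33.5 to 43.3 CPM over the 8 brains. The adjacent 4930558K02Rik, with at most 0.25 CPM in any brain, was lowest in the same 2 brains, at 0.02 and 0 CPM, and so was Zbtb37, with 88.3 and 93.0 CPM against 99.6 to 127 CPM in the other 6. Dnm3 was still called higher than both organs, with a log2 fold change of 3.95 (SE 0.56), and in the Y130A litters alone, at 3.99 (SE 1.07, edgeR adjusted p = 0.00392), it missed the call only by its standard error.

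**Figure D5:**
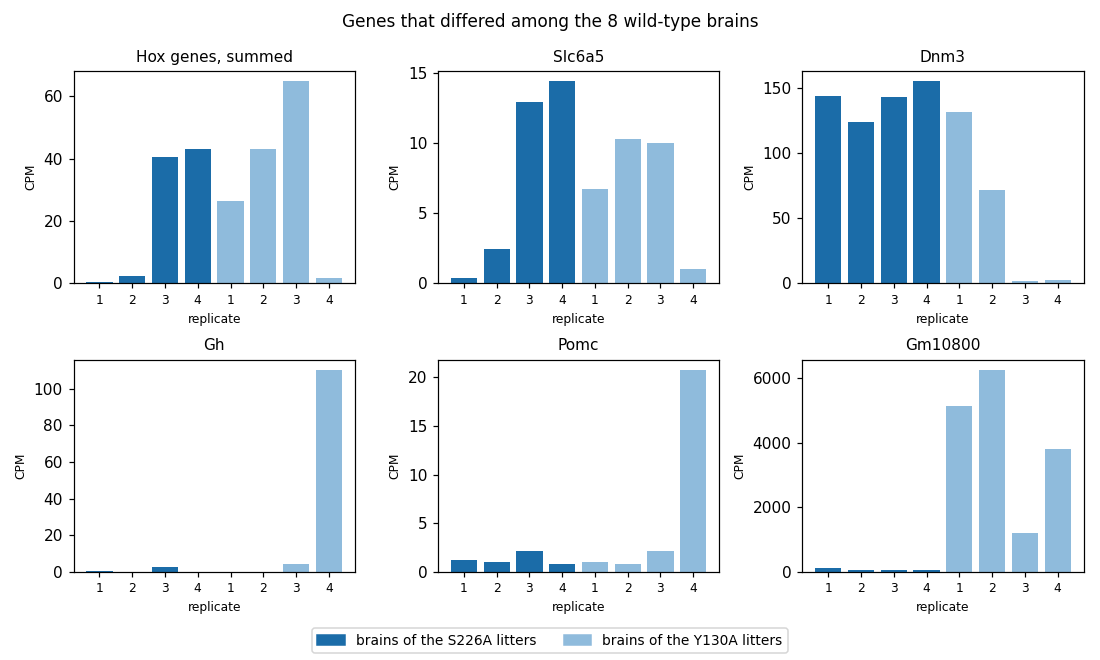
CPM (vertical axis) of the summed Hox genes, Slc6a5, Dnm3, Gh, Pomc and Gm10800 in the 8 wild-type brains (horizontal axis, replicate numbers within each set of litters), with 1 bar per brain. Hox genes and Slc6a5 are low in the same 3 brains, Dnm3 is near 0 in 2 brains of the Y130A litters, and Gm10800 is high in all 4 of these litters.

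Between the sets of litters the brains differed in 15 genes (0.0906% of those tested), of which 2 were higher and 13 lower in the S226A litters, with depth and litter set not told apart. Of these, 11 were predicted genes, among them Gm10800, which had 49.9 to 118 CPM in the brains of the S226A litters and 1188 to 6265 CPM in those of the Y130A litters. Several of these gene models resemble each other, so that single counts are uncertain. No gene of the 33 lists was among these 15. With only the 5 brains of many Hox reads in the fit, 7 genes were called between the sets, 1 higher and 6 lower. The difference between brain and the mean of both organs was not called as unequal between the litter sets for any gene (0 of 16561 in edgeR, with 1752 at an unadjusted p below 0.05), while DESeq2 called 43, both without the limit on the standard error. Of these 43, 5 were on the lists: Sox2, Bcl11b, Gjb6, Slurp1 and Krt4. For Sox2 the brain effect was lower by 3.26 on the log2 scale in the S226A litters in edgeR (SE 0.87, adjusted p = 0.186), and DESeq2 gave an adjusted p of 0.000501. The liver reads of Sox2 all came from the liver of the S226A litters, replicate 2, at 0.79 CPM. That liver also held squamous transcripts, and Slurp1 and Krt4 are on the squamous list.

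The mutant brains differed from wild-type littermates in few of the genes listed here. In S226A brains 21 of 16892 genes were called against wild-type littermates (0.124%), and 3 of 287 genes on the neuronal, progenitor, regional and glial lists were among them. All 3 were microglial: Csf1r, Cx3cr1 and P2ry12 fell, with log2 fold changes of -1.52 (SE 0.08), -2.21 (SE 0.20) and -2.16 (SE 0.33). In Y130A brains 0 genes were called (0%) by edgeR, with 1 of the 287 list genes at an unadjusted p below 0.05, and DESeq2 called 0 list genes. In S226A brains DESeq2 called 32 genes, 4 of them among 293 genes on these lists. Of the 3042 genes that were higher in wild-type brain, edgeR called 1 in S226A brain and 0 in Y130A brain, and DESeq2 called 1 in each.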

How the data were processed

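RNA of E18.5 brain, liver and lung was extracted with Trizol and sequenced on Illumina instruments. The authors aligned reads with STAR 2.6.0b to GRCm38.p6 with GENCODE M19 after Trim Galore 0.6.5 and FastQC 0.11.5, and deposited raw counts per gene. The strand setting is not given in the sources used here, so overlapping and antisense genes cannot be told apart. Exon lengths came from GENCODE M21. Counts were tested with edgeR 4.0.16 in R 4.3.3 (quasi-likelihood, TMM, minimum count 10, minimum total count 15) over 6 groups of tissue and litter set, and 16561 genes passed. DESeq2 1.42.0 was an alternative, and the tests were tried on simulated data. CPM use TMM scaling, and p-values were adjusted by Benjamini-Hochberg.

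The members and the 33 lists were chosen with earlier results of these data known. Named genes were, per list, the 3 highest by brain RPKM, the largest and smallest change and those called the opposite way. Pairs, the 10 largest and 5 most negative changes, the 10 highest and 10 most variable in brain, and 11 preset genes were added. Any other gene was chosen after its values were seen.

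Samples of the same embryo deviated together: over 20 pairs the correlation of deviations was 0.0917 to 0.454, 19 of them over 0.1, against a median of -0.07 over 66 pairs from other litters. The pairing comes from the embryo numbers in the labels. Chi-square per degree of freedom was at least 4.82 for 33 replicate pairs, so no library was a copy of another. Results for some genes are not reported here.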

Additional observations from a re-analysis of the deposited data

Results flagged for a closer look

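Of 133 sets of 4 to 10 libraries of 1 tissue that were tested for a value standing apart (Dixon's test), 13 had one, and chance alone flags about 1 in 20. In the brain of the Y130A litters, replicate 4, the pituitary list had a level of 1.37, Gh was at 6.80 and Pomc at 4.45 on the log2(CPM + 1) scale. In the brain of the Y130A litters, replicate 1, the leukocyte list was at 1.85 and the lung epithelium list at 0.48. The axon growth list was lowest, at 7.36, in the brain of the Y130A litters, replicate 3, and the cartilage list was highest, at 1.76, in the brain of the S226A litters, replicate 2.

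In the liver of the S226A litters, replicate 2, the squamous list was at 4.70, the neural progenitor list at 2.21 and the pituitary list at 0.41, each the highest of the livers. In the liver of the Y130A litters, replicate 1, the leukocyte list was at 7.54 and the list of neurogenic factors at 0.85. The choroid plexus list was lowest in the lung of the S226A litters, replicate 4, at 3.54. The causes of these values were not tested.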

How the results depend on the processing

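Counts of genes against the mean of both organs stayed within 1.5 times of 8524 under other tools, scaling, filters and samples, from 7936 with only the S226A litters to 8772 without a filter, and at 8444 to 8569 without single libraries. With the litter as a replicate block 8590 genes were called, and the block moved no count by over 1.5 times. An adjusted p below 0.05 alone gave 14165 genes (7332 higher, 6833 lower) against the mean, 10274 (5410, 4864) against both, 14448 (7497, 6951) against liver and 13892 (7051, 6841) against lung, since the other limits are dropped. For the litter sets it gave 1 gene for the brain effect and 422 between brains. DESeq2 called 32 genes in S226A brain against 21 in edgeR and 43 genes for the brain effect, and leaving out single libraries gave 0 to 1, with 1 without the brain of the Y130A litters, replicate 2, or the liver of the S226A litters, replicate 2. The 5 brains with many Hox reads, an alternative added after the data were seen, gave 7 genes between brains. Eno1, at -0.01, became 0.0404 with DESeq2 and with RLE factors, 0.00555 without a filter, 0.0029 with the replicate block and 0.0548 with only the S226A litters, and was -0.0259 to 0.0188 without single libraries. Shank3 became -0.13 with only the S226A litters. Vamp2 (0.73 with only the S226A litters), Dnm3 (3.99 with only the Y130A litters) and Crabp2 (5.66 with DESeq2) kept their direction and lost the call. Genes with few reads in liver and lung are limited by depth. The causes were not tested.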
